A study of Mus musculus with 4 samples.

Results

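The genes described here encode 10 subunits of the BAF chromatin remodelling complex, the mammalian SWI/SNF complex, and they were measured in mouse blastocysts as mRNA by RNA-seq and as ribosome protected fragments (RPF) by Ribo-seq. They were chosen by name (Smarca4, Smarca2, Smarcb1, Smarcc1, Smarcc2, Smarcd1, Smarce1, Arid1a, Actl6a, and Dpf2), and all 10 were found, each once in every file, among the 20714 gene symbols listed in both assays. The data are 4 libraries of wild-type embryos given no experimental treatment, with 2 replicates for RNA-seq and 2 for Ribo-seq. Ovulation of the mothers was induced by injection of the hormones PMSG and hCG. The paper cautions that superovulation and culture may influence embryo quality. The embryos came from 4-week-old C57BL/6J females mated with PWK/PhJ males per the protocol, whereas the strain label reads C57BL/6N x PWK. They were taken at the 8-cell stage, grown to blastocysts in KSOM medium, and freed of the zona pellucida with acidic Tyrode's solution, so both assays describe embryos that had been cultured in vitro. The labels do not say whether the replicates were separate pools of embryos, and the p-values therefore measure only the spread between these libraries, which may be technical.

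BAF complexes use the energy of ATP to slide or evict nucleosomes, which opens enhancers and promoters to transcription factors. Each complex carries a single ATPase, either Smarca4 (BRG1) or Smarca2 (BRM), on a core built from the Smarcc scaffolds, Smarcb1, a Smarcd subunit, and Smarce1. The Arid1 and Dpf subunits mark the canonical form of the complex, and actin-related Actl6a joins the ATPase module. Several positions can be filled by either of a set of paralogs. Embryos without Smarca4 are known to die around implantation. RPF and mRNA levels address which of these subunits were present as mRNA and which were covered by ribosomes at the blastocyst stage.

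Since Ribo-seq reads what ribosomes cover from the start codon onward, the bases around the annotated start codons are shown for the gene whose RPF stood highest and for the ATPase and scaffold pairs. They are read 5′ to 3′ from GENCODE vM1 transcripts on NCBIM37 (the assembly of mm9), with the start codon in capitals after 12 bases of the 5′ leader.
Dpf2 (exon 1, chr19:5912764-5912784, minus strand): ggaacagggaagATGgcggct
Smarca4 (exon 2, chr9:21437265-21437285, plus strand): gctccagtaaagATGtctact
Smarca2 (exon 2, chr19:26694198-26694218, plus strand): caggagacctagATGtccaca
Smarcc1 (exon 1, chr9:110034609-110034629, plus strand): cggacggtgactATGgccgcg
Smarcc2 (exon 1, chr10:127896371-127896391, plus strand): gagcccgagaagATGgcggtg
A purine at the third base before the start codon, part of the sequence that favours initiation, was present in 8 of the 9 subunit genes with an annotated leader (88.9%) and in 84.2% of 18693 genes. Smarca2, with T at that base, was the exception. A G directly after the start codon was present in 4 of 9 (44.4%) against 49.4% of the genes, and both features together in 4 of 9 (44.4%) against 41.4%. The members were therefore close to the genome as a whole in these letters. Arid1a had no leader in the annotated transcript and was left out of these counts.

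Levels are FPKM, fragments scaled to the length of the gene and to the total of mapped fragments, as the authors deposited them. In RNA-seq they refer to the transcript and in Ribo-seq to the coding sequence. The deposited values carry no read counts, but low values fell on steps that implied 5486643 and 5224241 fragments in the RNA-seq replicates and 528923 and 479670 footprints in the Ribo-seq replicates. Between 64.7% and 83.5% of the low values used were within 0.1 of a whole fragment. The totals were chosen by this share, so it is not an independent check of them. For a gene of 1000 bases, a single fragment was worth 0.228 and 0.239 FPKM in RNA-seq and 2.36 and 2.61 FPKM in Ribo-seq. Replicates had a Spearman correlation across genes of 0.9399 for mRNA and 0.8976 for RPF, as a description, since genes are not independent replicates. All 6 trophectoderm and all 4 epiblast markers were above 0 in each library, primitive endoderm markers were above 0 in each library except for 2 of 4 in RNA-seq replicate 2, and 5 of 5 cumulus and granulosa cell markers were at 0 throughout. Trophectoderm markers summed to 3023 and 2779 FPKM in mRNA and 5765 and 5321 in RPF. Epiblast markers summed to 141 and 57.7 FPKM in mRNA and 699 and 815 in RPF. For primitive endoderm the sums were 12.5 and 9.34 FPKM in mRNA and 154 and 143 in RPF. Whether the 4 libraries hold like embryos was not tested. Of 6 oocyte markers, 4 (Zp1, Zp2, Bmp15, and Nlrp5) were at 0 in all 4 libraries. The 6 summed to at most 1.92 FPKM in any library. Of 3 sperm markers Prm1 and Tnp1 were at 0 in all 4 libraries, and the list was above 0 only in Ribo-seq replicate 2, where it summed to 33.7 FPKM. Of 3 blood markers Hbb-b1 and Ptprc were at 0 in all 4 libraries, and Hba-a1 was at 1.62 and 0.729 FPKM in RNA-seq and at 0 in Ribo-seq. In whole embryos, fewer cells of a type and less RNA per cell cannot be told apart.

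The BAF subunits covered a wide range of levels. In RNA-seq 9 of 10 and in Ribo-seq 10 of 10 were at 1 FPKM or more in both replicates. Their median mRNA level was 9.43 and 10.8 FPKM, and their median rank lay at the 81.65th and 82.63th percentile of the genes listed in both assays. The median RPF level was 34.0 and 35.6 FPKM, at the 82.16th and 82.26th percentile. These percentiles count the many genes at 0. The genes tested below, with 1 FPKM or more, had medians of 7.98 and 8.07 FPKM in mRNA and 25.3 and 23.8 FPKM in RPF, not far under those of the members. Smarca2, Smarcd1, and Smarcc2 lay under these medians in all 4 libraries. The order of the members by mean mRNA was Smarcb1, Actl6a, Smarce1, Dpf2, Smarcc1, Arid1a, Smarca4, Smarcc2, Smarcd1, and Smarca2. Neighbours whose replicates overlapped, so that their order cannot be told, were Actl6a and Smarce1, Smarce1 and Dpf2, and Smarcc1 and Arid1a. By mean RPF the order was Dpf2, Smarcb1, Smarce1, Actl6a, Smarcc1, Smarca4, Arid1a, Smarcd1, Smarca2, and Smarcc2. Here Dpf2 overlapped with Smarcb1, Smarce1 with Actl6a, Smarca4 with Arid1a, and each of the last 4 genes with its neighbour. Across the 10 members, the Spearman correlation of mean mRNA with mean RPF was 0.867, and across the 9 without Smarca2 it was 0.85. It was 0.811 across the 8327 genes tested below. The highest and lowest members differed by 254-fold in mRNA (29.2-fold without Smarca2) and by 39.6-fold in RPF.

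**Figure D1:**
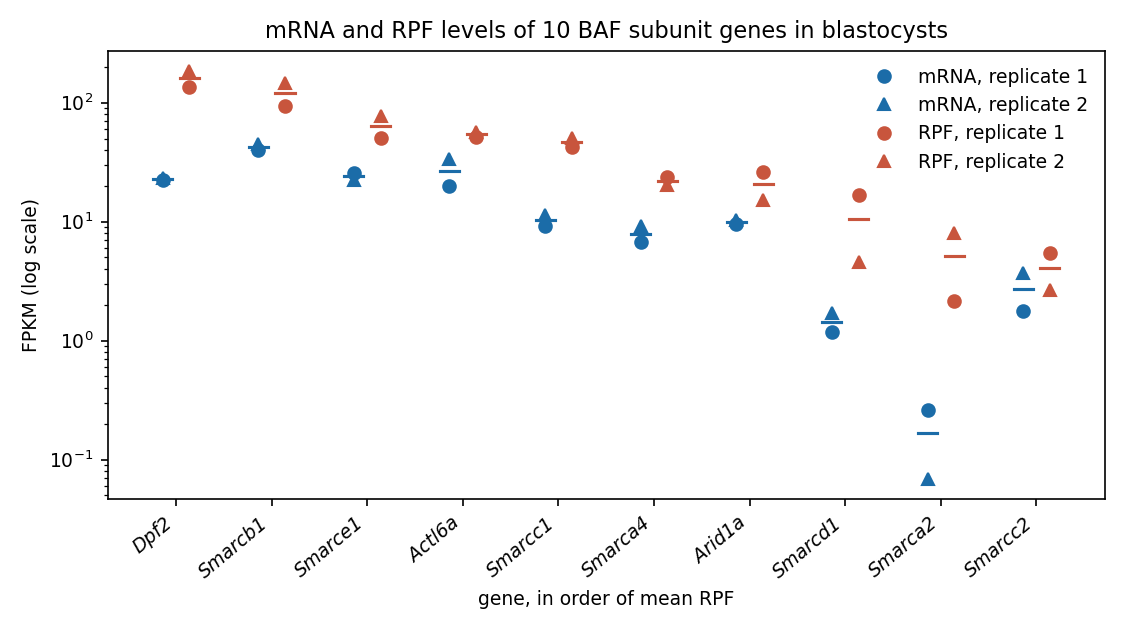
mRNA (blue) and RPF (red) levels of the 10 subunit genes in FPKM on a log axis, with circles for replicate 1, triangles for replicate 2, and a short line at the mean of both. Dpf2 and Smarcb1 head the RPF levels at means of 160 and 121 FPKM, and only Smarcc2 has RPF and mRNA values that overlap.

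Of the ATPases, Smarca4 was the main one at both levels. Smarca4 (34 exons, chr9:21420613-21508674, plus strand) had mRNA levels of 6.70 and 9.20 FPKM and RPF levels of 23.7 and 20.4 FPKM. Its RPF replicates rested on 58 and 45 footprints and did not differ beyond counting error, with a ratio between replicates of 0.859 (95% interval 0.566 to 1.28). Smarca2 (33 exons, chr19:26679650-26852811, plus strand) had mRNA levels of 0.263 and 0.0694 FPKM, which are 8 and 2 fragments. Its RPF levels were 2.16 and 8.05 FPKM, from 5 and 18 footprints. Smarca2 mRNA was thus the lowest of the members in both replicates, whereas its RPF lay above that of Smarcc2 and Smarcd1 in Ribo-seq replicate 2 and below both in replicate 1. Between the Ribo-seq replicates, Smarca2 differed by 3.73-fold (95% interval 1.42 to 13.7), more than counting error.

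Smarca4 made up 96.2% and 99.3% of the summed mRNA of the ATPase pair and 91.7% and 71.7% of the RPF. In RNA-seq, Smarca4 was 25.4-fold (95% interval 12.9 to 60.4) and 132-fold (37.0 to 1120) above Smarca2. In Ribo-seq it was 11.0-fold (4.59 to 36.3) and 2.53-fold (1.39 to 4.49) above it. Every interval lay above 1, so Smarca4 was the higher ATPase in each of the 4 libraries. The intervals of this and the other pairs cover counting error only, and amplified reads are not independent molecules.

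Reads can be told apart between the ATPases only where their sequences differ, and the longest identical run of the coding sequences is shown for that reason, in capitals within 28 bases, about the length of a footprint.
Smarca4 (exon 4 of 34, chr9:21440185-21440212, plus strand): caagATGTTGGCCAGGGGCCAGCCattg
Smarca2 (exon 4 of 33, chr19:26705371-26705398, plus strand): caaaATGTTGGCCAGGGGCCAGCCtctc
The run is 20 bases, shorter than a 28-base window. With 2 mismatches allowed, 117 of 4827 coding windows of Smarca4 (2.42%) had a match in the protein-coding transcripts of another gene, 52 of them in Smarca2. For Smarca2 it was 161 of 4725 windows (3.41%), and the most frequent partner was Foxp2 with 67 windows. Exact matches to another gene covered 44 windows of Smarca2 (0.931%), more than the 3 windows of Smarca4 (0.0622%). The Smarca2 window found exactly in the most other genes, 54 of them, was a CAG repeat in exon 4 (chr19:26705479-26705506, plus strand): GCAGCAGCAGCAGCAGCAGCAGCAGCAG. Whether reads from such windows were counted for Smarca2 was not tested, since positions of reads were not used here.

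Among the core subunits, Smarcb1 stood highest and the scaffold Smarcc1 exceeded its paralog Smarcc2. Smarcb1 (SNF5, 9 exons, chr10:75359514-75384362, minus strand), which contacts the nucleosome face opposite the ATPase, had mRNA levels of 39.7 and 44.6 FPKM and RPF levels of 94.7 and 147 FPKM. It was first of the 10 members in mRNA in both replicates and second in RPF in both. Its RPF replicates differed by 1.55-fold (95% interval 1.05 to 2.28), from 48 and 67 footprints. Smarce1 (11 exons, chr11:99070361-99092331, minus strand), which carries a DNA-binding HMG domain, had mRNA levels of 25.6 and 22.4 FPKM and RPF levels of 50.4 and 77.3 FPKM. Neither Smarcb1 nor Smarce1 had a coding window that matched a protein-coding transcript of another gene within 2 mismatches.

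Smarcc1 (BAF155, 28 exons, chr9:110034541-110142682, plus strand), a scaffold around which the core assembles, had mRNA levels of 9.26 and 11.3 FPKM and RPF levels of 42.0 and 50.9 FPKM. Smarcc2 (BAF170, 28 exons, chr10:127896292-127927229, plus strand), the other scaffold, had mRNA levels of 1.76 and 3.72 FPKM and RPF levels of 5.43 and 2.66 FPKM. The RPF of Smarcc2 rested on 10 and 4 footprints, and it was the only member whose RPF and mRNA values overlapped. Smarcc2 made up 16.0% and 24.8% of the mRNA of the pair and 11.4% and 4.96% of the RPF, and Smarcc1 the rest. In Ribo-seq it was 7.74-fold (95% interval 3.91 to 16.6) and 19.2-fold (7.87 to 79.0) above Smarcc2, and in RNA-seq 5.25-fold (3.81 to 7.30) and 3.03-fold (2.40 to 3.87). On the log2(FPKM+1) scale, the mean ratio was 1.64 ± 0.363 (SD, n = 2) in mRNA and 3.28 ± 0.767 in RPF, and the replicates of the assays did not overlap.

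The scaffolds share a longer identical run than the ATPases do, 26 bases in exon 25 of each gene, shown in capitals because it is the stretch where a footprint is least able to tell them apart.
Smarcc1 (exon 25 of 28, chr9:110116072-110116099, plus strand): aCAAATGAAGAAACTAGAGATCAAACTt
Smarcc2 (exon 25 of 28, chr10:127922675-127922702, plus strand): cCAAATGAAGAAACTAGAGATCAAACTc
With 2 mismatches allowed, 36 of 3288 Smarcc1 windows (1.09%) matched another gene, all of them Smarcc2. For Smarcc2 it was 1.47% of windows.

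Smarcd1 was low in mRNA, rested on few footprints, and lay under its paralog Smarcd2 in every library. Smarcd1 (BAF60A, 13 exons, chr15:99532718-99544426, plus strand), which links the complex to transcription factors, had mRNA levels of 1.18 and 1.71 FPKM. Its RPF levels were 16.7 and 4.59 FPKM, from 12 and 3 footprints, with a ratio between replicates of 0.276 (95% interval 0.0499 to 1.02). Replicate 2 was thus at the floor of 3 footprints. The paralog Smarcd2 was higher in every library, with mRNA of 7.95 and 6.38 FPKM and RPF of 46.3 and 39.5 FPKM. Smarcd1 therefore gave 12.5% and 21.1% of the mRNA of the Smarcd family and 26.5% and 10.4% of the RPF. The ratio of Smarcd1 to Smarcd2 was 0.149 (95% interval 0.0857 to 0.242) and 0.268 (0.163 to 0.414) in mRNA and 0.360 (0.172 to 0.724) and 0.116 (0.0231 to 0.390) in RPF. Smarcd3, the third paralog, was listed at 0 in every library except RNA-seq replicate 1, where it was at 0.358 FPKM. Smarcd1 had the largest share of coding windows matching another gene within 2 mismatches among the members, 10.5%, of which most (123 windows) matched the gene model Gm17349.

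Of the subunits that mark the canonical complex, Dpf2 was the highest member in RPF, whereas Arid1a was in the middle of the range. Dpf2 (BAF45D, 12 exons, chr19:5896516-5913010, minus strand), whose paired PHD fingers read histone tails, had mRNA levels of 22.6 and 23.3 FPKM and RPF levels of 136 and 184 FPKM. Its RPF was above that of every other member in both replicates and rested on 73 and 90 footprints. Neither the mRNA (ratio 1.03, 95% interval 0.871 to 1.23) nor the RPF (1.35, 0.987 to 1.88) differed between replicates beyond counting error. Dpf2 gave 95.9% and 99.4% of the mRNA and 96.9% and 97.5% of the RPF of its family. Dpf3 RPF was 4.30 and 4.74 FPKM from 2 footprints in each replicate, and Dpf2 was 31.7-fold (95% interval 7.12 to 224) and 38.9-fold (8.84 to 276) above it. No RPF of Dpf1, a subunit of neurons, was listed in either replicate (0 FPKM). Dpf2 RPF was 24.0-fold and 29.4-fold above a floor of 3 footprints for Dpf1. The lower 95% bounds of the RPF ratio of Dpf2 to Dpf1 were 18.9 and 23.4. Of the coding windows of Dpf2, 2.18% matched another gene within 2 mismatches, 13 windows Dpf1 and 13 Dpf3.

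Arid1a (BAF250A, 20 exons, chr4:133234923-133312684, minus strand), the largest subunit, which binds DNA through its ARID domain, had mRNA levels of 9.59 and 10.2 FPKM. Its RPF levels were 26.0 and 15.1 FPKM, from 92 and 48 footprints, and these replicates differed beyond counting error (ratio 0.582, 95% interval 0.397 to 0.824). The paralog Arid1b had mRNA of 0.699 and 0.632 FPKM and RPF of 3.15 and 3.31 FPKM. Arid1a thus gave 93.2% and 94.2% of the mRNA of the pair and 89.2% and 82.0% of the RPF. It was 8.27-fold (95% interval 4.38 to 17.0) and 4.57-fold (2.35 to 10.4) above Arid1b in RPF, and 13.7-fold (9.93 to 19.1) and 16.2-fold (11.5 to 23.1) in mRNA. Of its coding windows, 1.49% matched another gene within 2 mismatches.

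Actl6a (BAF53A, 14 exons, chr3:32607468-32625890, plus strand), an actin-related protein that is also a subunit of the INO80 and TIP60 complexes, had mRNA levels of 20.1 and 33.4 FPKM and RPF levels of 51.6 and 56.9 FPKM. Its mRNA differed between replicates by 1.66-fold (95% interval 1.38 to 2.0), whereas its RPF rested on 30 footprints in each. Actl6b, which replaces Actl6a in neurons, was listed at 0 in all 4 libraries. Actl6a RPF was 9.83-fold and 9.82-fold above the floor of 3 footprints for Actl6b, and its mRNA 51.2-fold and 81.0-fold above the floor of 3 fragments. The lower 95% bounds of the ratio of Actl6a to Actl6b were 7.58 in both Ribo-seq replicates and 41.3 and 65.4 in RNA-seq. Of the coding windows of Actl6a, 4.91% matched another gene within 2 mismatches, mostly (57 windows) Mrpl47, a gene whose transcript overlaps it in the genome.

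**Figure D2:**
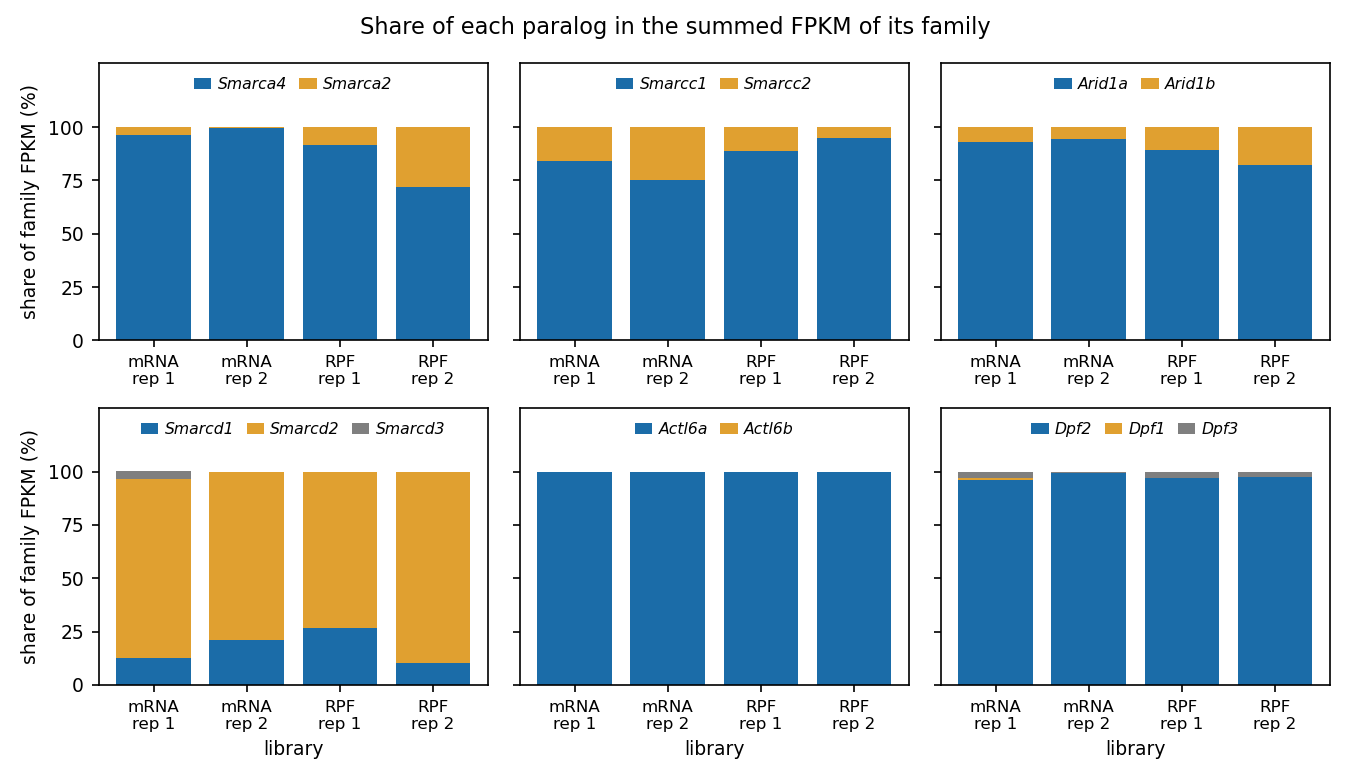
Share of each paralog in the summed FPKM of its family (percent, y axis) in the 4 libraries (x axis), as stacked bars with a panel for each family. Smarca4, Smarcc1, Arid1a, Actl6a, and Dpf2 take 71.7% or more in every library, whereas Smarcd2 and not Smarcd1 leads the Smarcd family.

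The balance between paralogs was then compared between the assays, over 8 pairs. With 2 libraries against 2, the smallest two-sided p that the exact permutation test allows is 0.333, so no pair could pass, and the outcome depended on the pseudocount for several pairs. Overlap here refers to the 2 ratios of each assay, not to their counting intervals. Those intervals overlapped between the replicate 1 libraries for the ATPase, scaffold, and Arid1 pairs. Between the replicate 2 libraries they did not. Smarcc1 to Smarcc2 was the pair with a higher ratio in RPF and no overlap of the assays on every scale used, at 5.25 and 3.03 in mRNA and 7.74 and 19.2 in RPF without a pseudocount (exact permutation p = 0.333 on the log2(FPKM+1) scale, adjusted p = 0.533 over the 8 pairs). Smarca4 to Smarca2 was lower in RPF on every scale. Without a pseudocount, or with one of 0.1, its assays did not overlap, whereas on the log2(FPKM+1) scale they did, at 2.93 ± 0.457 (SD, n = 2) in mRNA and 2.10 ± 1.22 in RPF (exact permutation p = 0.667, adjusted p = 0.762). The Smarca2 mRNA levels of 0.263 and 0.0694 FPKM are smaller than the 1 added to them on that scale. The same was seen for Arid1a to Arid1b, lower in RPF without overlap in FPKM and with a pseudocount of 0.1, and overlapping on the log2(FPKM+1) scale, at 2.71 ± 0.102 and 2.30 ± 0.565 (SD, n = 2, exact permutation p = 0.667). Smarcd1 to Smarcd2 overlapped on each scale, at -1.74 ± 0.417 in mRNA and -2.14 ± 1.01 in RPF with a pseudocount of 1 (SD, n = 2, exact permutation p = 1.000). For Dpf2 to Dpf3 the direction turned with the pseudocount. It was higher in RPF without overlap on the log2(FPKM+1) scale (4.11 in mRNA and 4.85 in RPF), but lower with a pseudocount of 0.1 (5.71 and 5.10), and the FPKM ratios of 32.8 and 160 in mRNA overlapped with those of 31.7 and 38.9 in RPF. No direction is read from this pair. In the other 3 pairs, with Smarcd3, Actl6b, and Dpf1, the second gene was at 0 in at least 3 of 4 libraries, so that their ratios follow the pseudocount.

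The RPF level was next set against the mRNA level of each gene, relative to other genes. The assays differ in library preparation and in the sequence counted, whole transcripts in RNA-seq and coding sequences in Ribo-seq. Ribosome coverage per transcript cannot be told apart here from such differences between the assays. In FPKM, RPF exceeded mRNA without overlap for 9 of 10 members, as it did for 72.5% of the 8327 tested genes, so this count says little about the members. The scales of the assays differ, with library medians of 3.17 to 3.18 on the log2(FPKM+1) scale in RNA-seq and 4.63 to 4.72 in Ribo-seq. The ratio of mean RPF to mean mRNA in FPKM had a median of 2.81 over the members and 2.80 over the tested genes. Among the members it was 1.47 for Smarcc2, between 2.03 and 2.86 for Actl6a, Arid1a, Smarce1, Smarca4, and Smarcb1, 4.52 for Smarcc1, 6.99 for Dpf2, 7.36 for Smarcd1, and 30.7 for Smarca2. The last of these sets 5 and 18 footprints against 8 and 2 RNA-seq fragments.

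For the test, each library was centred on its median and the assays were compared with limma across all genes with a mean of at least 1 FPKM in both. A gene was called at an adjusted p under 0.05 and a difference of at least 1 on the log2(FPKM+1) scale, which understates changes of low genes. In total, 861 of 8327 genes (10.3%) were called higher in RPF and 716 (8.6%) lower. Without centring the split was 4144 higher and 66 lower, with 6 members called higher. Of the members 9 were tested, 1 was called higher, 0 were called lower, and 8 did not pass. At an unadjusted limma p under 0.05 the count was also 1 of 9, against 3113 of the 8327 genes (37.4%). With 9 genes tested, a single call is close to the 10.3% of the background and is not a result about the complex. Smarca2 was not tested, since its mean mRNA was under 1 FPKM. With no filter on low values its difference was 0.76 (limma adjusted p = 0.477).

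The called gene was Dpf2, with RPF 1.23 ± 0.257 (SE) above mRNA on the centred log2 scale, or 2.35-fold (limma adjusted p = 0.0278, 95% interval 0.59 to 1.88). The call was lost without either RNA-seq replicate, at differences of 1.22 and 1.25. It was also lost without Ribo-seq replicate 2, where the difference was 0.98, and with 1 prior variance for all genes (adjusted p = 0.0693). The difference was positive in all 13 alternatives tried, from 0.98 to 2.74. Some of these leave 1 library in an assay, whose spread they do not measure, so their calls are not counted here.

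The other members gave differences on both sides of 0, none of which passed. Smarcc1 was at 0.57 ± 0.287 (SE, limma adjusted p = 0.210) and Smarcd1 at 0.53 ± 0.665 (adjusted p = 0.589). Smarcb1, Smarca4, and Smarce1 lay between -0.16 and -0.04, with adjusted p of 0.737 to 0.934. Actl6a was at -0.47 ± 0.317 (adjusted p = 0.329) and Arid1a at -0.57 ± 0.350 (adjusted p = 0.290). With single libraries left out, Actl6a ranged from -0.81 to -0.12 and Arid1a from -0.90 to -0.24. Smarcc2 was the lowest at -1.08 ± 0.585 (adjusted p = 0.239), and without Ribo-seq replicate 1 it was at -1.44. Smarcd1 was at 1.32 without Ribo-seq replicate 2, the replicate with 3 footprints for this gene. With 1 Ribo-seq library left, the spread of RPF is not measured, so no call is read from these 2 values. The median of the 9 members was -0.13 and that of all tested genes -0.24, and 6 of 9 members lay above the latter. The intervals were wide, so that for Smarca4, for example, the data allow a difference from -0.93 to 0.67.

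**Figure D3:**
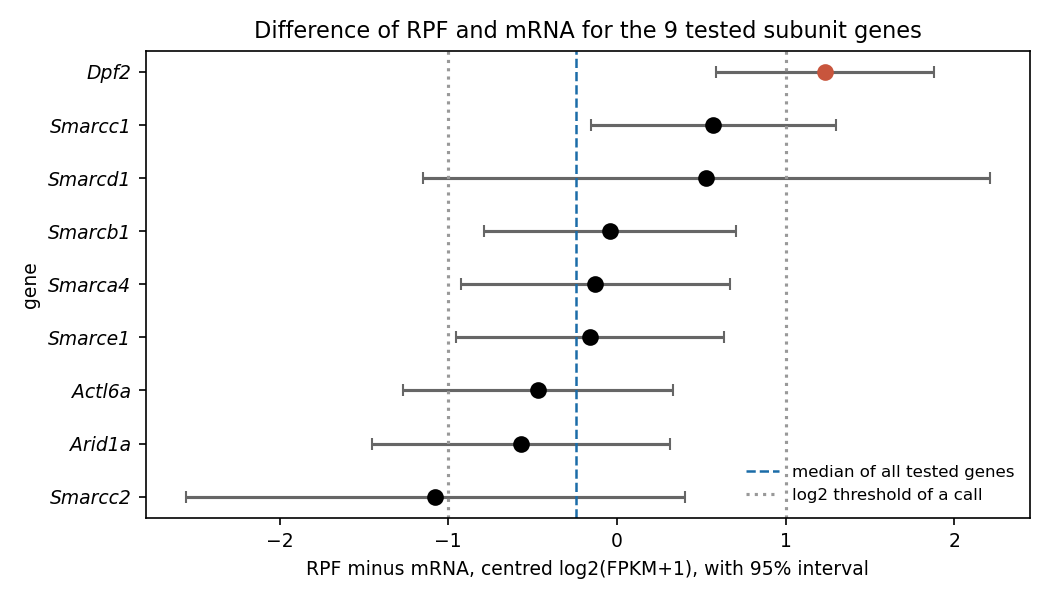
Difference of RPF and mRNA for the 9 tested subunit genes, in centred log2(FPKM+1), with points for the limma estimate and bars for its 95% interval. The dashed line is the median of all tested genes (-0.24) and the dotted lines are the log2 thresholds at 1 and -1. Dpf2, in red at 1.23, is the called gene.

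The footprints behind the RPF values set how finely the members can be compared. All 10 members together gave 425 and 419 footprints in the Ribo-seq replicates, 0.0804% and 0.0874% of the estimated totals. Arid1a gave the most in replicate 1 (92) and Dpf2 the most in replicate 2 (90). Smarcd1, Smarca2, and Smarcc2 had 18 or fewer in each replicate. Beyond counting error, the RPF replicates differed for Smarca2, Arid1a, and Smarcb1, and the mRNA replicates for Smarca4 (1.37-fold), Smarcc1 (1.22-fold), Smarcc2 (2.11-fold), and Actl6a (1.66-fold). In RPF, 4 of 10 members agreed within 1.5-fold between replicates, and in mRNA 7 of 10. No such counts were made over all tested genes, so these are not a result about the members.

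**Figure D4:**
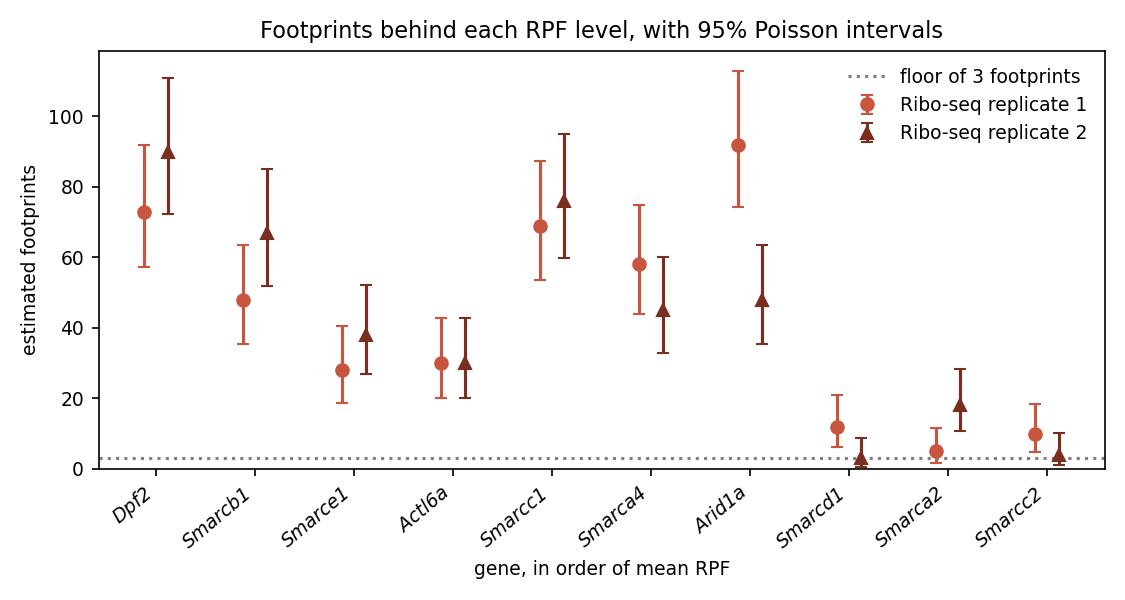
Estimated footprints (y axis) behind the RPF level of each subunit gene (x axis) in Ribo-seq replicate 1 (circles) and replicate 2 (triangles), with bars for 95% Poisson intervals and a dotted line at the floor of 3 footprints. Smarcd1 in replicate 2 sits on the floor, and the intervals of Arid1a do not overlap between replicates.

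The remaining BAF and PBAF subunits, 21 genes, were used for context. They include Arid2, Pbrm1, Brd7, and Phf10 of the PBAF form and Brd9, Bicra, and Bicral of the non-canonical form. Of these 11 were tested, 1 was called higher, 0 were called lower, and their median difference was -0.12. A single call among 11 is close to the 10.3% of all tested genes called higher. The called gene was Ss18, which anchors to the ATPase in BAF and is absent from PBAF. It had mRNA levels of 28.1 and 24.7 FPKM and RPF levels of 240 and 208 FPKM, above Dpf2 in both Ribo-seq replicates, with a difference of 1.54 ± 0.204 (SE, limma adjusted p = 0.00796). The counts of this list changed when single libraries were left out, so they rest on single libraries. Fits with 1 library left in an assay do not measure its spread, and their counts are not given. Unadjusted limma p was under 0.05 for 4 of the 11 genes, close to the 37.4% of all tested genes. Of these, Ss18, Smarcd2 (0.93), and Bcl7a (1.32) were higher in RPF, and Actb was lower (-0.83). Bcl7a was named after its value was seen. The highest of the list was Actb, the actin that pairs with Actl6a in the complex but is mostly cytoskeletal, at 5849 and 7344 FPKM in mRNA. The lowest gene above 0 was Bicra in mRNA (0.0358 and 0.113 FPKM) and Ss18l1, a neuronal paralog of Ss18, in RPF (0.929 and 2.05 FPKM). In both Ribo-seq replicates 5 genes were listed at 0, Smarcd3, Dpf1, Actl6b, Bcl11a, and Bcl11b, the last 2 also named after their values were seen. The neuronal forms Actl6b, Dpf1, Dpf3, and Ss18l1 summed to 1.79 and 0.845 FPKM in mRNA and 5.23 and 6.79 FPKM in RPF.

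Of 41 genes of other ATP-dependent remodellers, 38 were tested, 4 were called higher, and 0 lower, with a median difference of 0.08. Of all 8327 tested genes, 10.3% were called higher and 8.6% lower. With 4 of 38 close to the share called higher, the count is not a result about these remodellers. It also changed when single libraries were left out. The calls were Smarca5, the ISWI ATPase, at 1.1 (limma adjusted p = 0.0271), the histone chaperone Rbbp4 at 1.31 (adjusted p = 0.0110), and Ino80c and Yy1 of the INO80 complex at 1.39 (adjusted p = 0.0199) and 3.20 (adjusted p = 0.00282). By mean level, the highest of the list in both assays was Rbbp7, a histone chaperone close to Rbbp4, with RPF of 402 and 236 FPKM, although Pole3 was above it in Ribo-seq replicate 2 (264 FPKM). The lowest means above 0 were Actr5 in mRNA (0.673 and 0.266 FPKM) and Chd7 in RPF (1.92 and 0.235 FPKM). In replicate 1 of each assay Chd3 was lower than these, at 0.557 FPKM in mRNA and 1.25 FPKM in RPF. Pole3 and Chd3 were named after their values were seen. Among the ATPases of the remodeller families, mean RPF was 102 FPKM for Smarca5, 22.0 for Smarca4, 18.2 for Chd4, the NuRD ATPase, and 8.56 for Ino80. Chd4 and Ino80 were set beside Smarca4 after their values were seen. Smarca4 and Chd4 overlapped in RPF, whereas Smarca4 lay above Ino80 in both replicates.

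The 3 genes outside the members with levels nearest to Smarca4, by Euclidean distance of log2(FPKM+1) over the 4 libraries, were Ptprf (0.227), Ifrd2 (0.238), and Rabepk (0.246). Ptprf, for example, had mRNA levels of 6.87 and 7.86 FPKM and RPF levels of 22.1 and 20.2 FPKM. Over only 4 libraries of a single stage, such nearness means like levels in each assay and no more.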

How the data were processed

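RNA-seq (Smart-seq2, polyA RNA) and Ribo-seq (Ribo-lite) libraries of blastocysts were analysed as deposited FPKM values. Per the labels and the study's methods, the authors trimmed reads with Trim Galore 0.4.2 or cutadapt 1.14, removed rRNA reads from Ribo-seq with Bowtie2 2.2.2, mapped to the mm9 transcriptome with STAR 2.5.3a allowing up to 20 places per read, and computed FPKM with Cufflinks 2.2.1, over whole transcripts in RNA-seq and over coding sequences only in Ribo-seq.

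Where a symbol repeats, its highest value was used. limma 3.58.1 (R 4.3.3, mean-variance trend) was run on log2(FPKM+1) of all genes at a mean of 1 FPKM or more in both assays, centred per library, with Benjamini-Hochberg adjustment. Exact permutation tests compared paralog ratios. In simulated data for RPF against mRNA, with 8022 genes, the fit recovered 70.9% of 86 genes changed by 2 on the log2 scale and 90.1% of 81 changed by 3, and 4.29% of calls fell on unchanged genes. The simulation gave both assays the same spread and held no changes smaller than 2. These shares therefore do not carry over to the smaller differences of the members.

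Fragments were estimated from the steps of low FPKM, with the default fragment lengths of Cufflinks (mean 200, SD 80 bases). That assumption raises the RPF level of a short coding sequence, by 1.03-fold for Arid1a and 1.21-fold for Smarcb1. Estimates rest on the GENCODE vM1 transcript chosen for each gene, and the authors' gene models may differ in length. Intervals are at 95% and cover counting error only, and the floor is 3 fragments. Windows of 28 bases were matched to all protein-coding transcripts with up to 2 mismatches. Pseudogenes and non-coding transcripts were not searched. Coordinates are on NCBIM37. Other steps used Python 3.11.15, numpy 2.4.6, pandas 2.3.3, scipy 1.17.1, numba 0.67.0, and matplotlib 3.10.9.

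The members and gene lists were chosen with earlier results of these data known. Genes named were all members, their paralogs, the called, highest and lowest genes of the context lists, and the 3 genes nearest to Smarca4. Alternatives were the pseudocount, filters, centring, repeated symbols, the variance trend, the replicate number as a block, each library left out, a rescaling to 28-base footprints, and paralog ratios with no pseudocount, the last 2 chosen after seeing the data.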

Additional observations from a re-analysis of the deposited data

How the results depend on the processing

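No member's difference passed in every alternative, and the counts depended most on the centring and on single libraries. Without centring, 6 members were called higher, with 4144 of all genes higher and 66 lower, 6 other BAF and PBAF subunits and 26 genes of other remodellers higher, and a median of the members of 1.37. The median of all genes was then 1.26. Under it the differences of Smarca4 (1.37), Arid1a (0.93), Smarcb1 (1.46), Smarcc2 (0.43), Smarce1 (1.34), and Actl6a (1.03) turned positive. With 1 prior variance for all genes, 0 members were higher, and 554 of all genes were higher and 442 lower. Quantile normalization called 2 other BAF and PBAF subunits higher and 1 lower. With each replicate left out in turn, members called higher were 0 to 1 and lower 0 to 1, all genes higher 428 to 1334 and lower 140 to 1962 (the lowest counts without RNA-seq replicate 2 and the highest without Ribo-seq replicate 1), other BAF and PBAF subunits higher 0 to 2 and lower 0 to 3, genes of other remodellers higher 1 to 8 and lower 0 to 6, and the median of the members -0.24 to 0.036. Over the same settings the difference ranged from -0.32 to 0.069 for Smarca4, from -0.39 to 0.32 for Smarcb1, from -0.50 to 0.19 for Smarce1, and from -0.26 to 1.32 for Smarcd1, so that each changed sign. Smarca4 also did so with RPF rescaled to 28-base footprints (0.041), and Smarcb1 with no filter on low values (0.021). With a pseudocount of 0.1, log2 ratios of paralogs in mRNA were 5.00 for Smarca4 to Smarca2, 3.71 for Arid1a to Arid1b, -2.25 for Smarcd1 to Smarcd2, 2.83 for Smarcd1 to Smarcd3, 8.02 for Actl6a to Actl6b, 6.91 for Dpf2 to Dpf1, and 5.71 for Dpf2 to Dpf3. In RPF they were 6.47 for Smarcd1 to Smarcd3, 9.08 for Actl6a to Actl6b, 10.6 for Dpf2 to Dpf1, and 5.10 for Dpf2 to Dpf3. With no pseudocount, for pairs above 0 in all libraries, they were 5.86 for Smarca4 to Smarca2, 3.90 for Arid1a to Arid1b, and -2.33 for Smarcd1 to Smarcd2 in mRNA, and 6.18 in mRNA and 5.13 in RPF for Dpf2 to Dpf3. The order of the assays turned for Dpf2 to Dpf3 under both settings, and for Smarcd1 to Smarcd2, whose assays overlap, with no pseudocount (-2.29 in RPF). A lower pseudocount by construction widens ratios to genes near 0. With the replicate number as a block, Dpf2 stayed the called member, and 769 of all genes were higher and 618 lower. Libraries with the same number did not deviate together (correlation 0.00994), and nothing says that they share embryos. The footprint depth limits Smarca2, Smarcc2, and Smarcd1 most.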
